A study of Homo sapiens with 24 samples.

Results

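The 10 genes described here encode proteins that bind, cut or pull on actin filaments, and they were followed through butyrate and doxycycline treatment of a colorectal cancer cell line. They are GSN, CAPG, TPM1, TPM2, TPM4, TAGLN, CNN1, CNN2, ACTA2 and MYL9, and they were chosen by name. The array carried 34127 probes that were not controls, under 27263 gene or transcript names, and 17 of the probes were assigned to these 10 genes: 3 to TPM1, 2 each to GSN, CAPG, TPM2, TPM4 and TAGLN, and 1 each to CNN1, CNN2, ACTA2 and MYL9. All 17 were among the 18966 probes that could be tested.

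Total RNA came from HCT-116 cells, an epithelial line from a human colorectal carcinoma, and every group was made from 1 clone that carried the Tet repressor and a doxycycline-inducible dominant negative Tcf4 (DN-Tcf4), a form of the Wnt transcription factor that cannot bind beta-catenin. Control cells (Ctl), labelled untreated and mock-treated, received neither agent, Doxy cells received doxycycline at 4 ug/ml, NaB cells received sodium butyrate at 5 mM, and DoxyNaB cells received both at the same doses. The labels give 17.5 hr of treatment, and by the study's methods butyrate was added to cells already given doxycycline or not. The 4 treatments were run in 6 numbered experiments, which gave 24 single-colour arrays and n = 6 per group. DN-Tcf4 was also encoded in the Ctl and NaB cells, but its inducer was withheld there. The study describes little DN-Tcf4 in this clone with doxycycline alone and much with both agents, so Doxy cells are not a model of strong induction. NaB/Ctl is the response to butyrate, DoxyNaB/Doxy is the same response with doxycycline present, Doxy/Ctl and DoxyNaB/NaB are the responses to doxycycline, and the interaction is NaB/Ctl minus DoxyNaB/Doxy on the log2 scale.

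Actin filaments give an epithelial cell its shape, carry its junctions and, with myosin II, pull. Gelsolin and CapG cap filament ends, and gelsolin also severs filaments. Tropomyosins are coiled-coil proteins that lie along the filament and set which other proteins reach it, and transgelin and the calponins bind alongside them. Smooth muscle actin and the regulatory light chain MYL9 belong to the contractile apparatus. Many of these genes are known targets of serum response factor (SRF), which binds the CArG box, and butyrate is an inhibitor of histone deacetylases that has long been known to raise gelsolin in carcinoma cells.

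A level below is the log2 ratio of a probe's signal to the signal at the 75th percentile of its own array, so that 0 is a bright spot and a negative value is a dimmer one. Levels of different probes are not compared with each other, because a probe's brightness depends on its sequence. A probe was called when its fold change was over 2 and its limma adjusted p (Benjamini-Hochberg, over all 18966 probes) was under 0.01. The share of an array's spots that rose clearly over background was 78.3% to 88.1% in experiments 2 to 4 and 52.5% to 62.4% in the others. In experiment 1 the Ctl and Doxy arrays were on 1 slide and the NaB and DoxyNaB arrays on another, so for that experiment the slide and the effect of butyrate cannot be told apart. Epithelial markers fitted the label: 5 of 7 were well above background on all 24 arrays. None of 9 fibroblast markers and 2 of 7 smooth muscle markers were.

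Butyrate raised gelsolin and calponin 1 and lowered tropomyosin 4, both without and with doxycycline. In NaB/Ctl, 7 of the 17 probes were called, against 31.7% of all tested probes. They were 4 higher (20.7% of all probes), 2 for GSN, 1 for CNN1 and 1 for TPM1, and 3 lower (11%), 2 for TPM4 and 1 for TPM2. In DoxyNaB/Doxy 5 were called, against 30.6%, with 3 higher (18.3%), for GSN and CNN1, and 2 lower (12.3%), for TPM4. At any fold, 13 probes had an adjusted p under 0.01 in NaB/Ctl, where 68.3% of all probes did, and 12 in DoxyNaB/Doxy, where 67.0% did. The median log2 change of the 17 probes was −0.28 in NaB/Ctl and −0.18 in DoxyNaB/Doxy, against 0.17 and 0.10 over all tested probes. Butyrate changed a large part of the array, so the number of called probes is not by itself a result about these 10 genes.

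**Figure D1:**
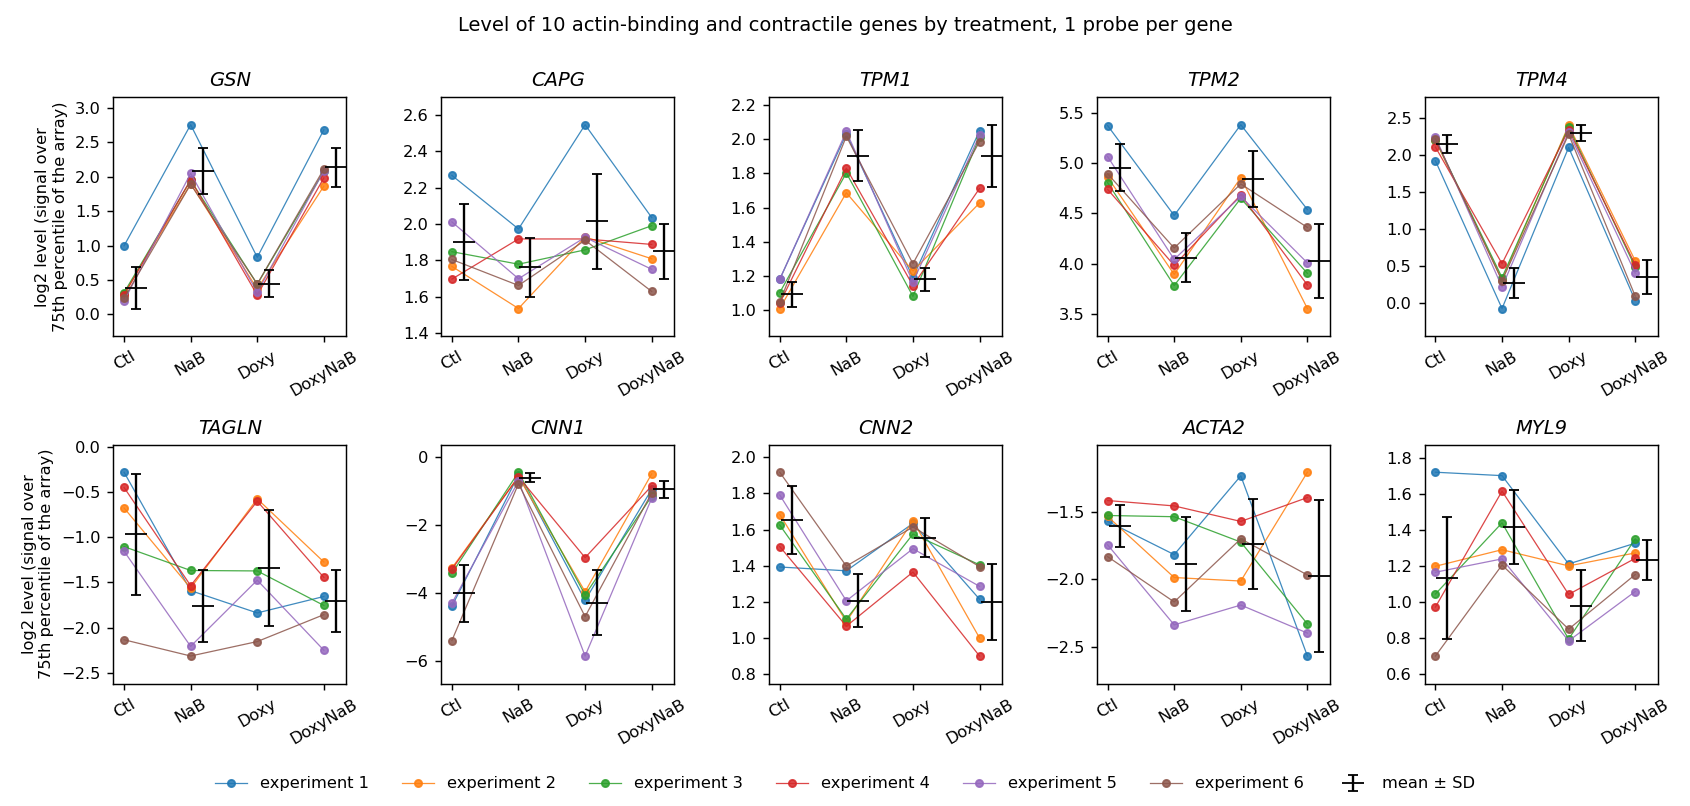
Log2 level (signal over the 75th percentile of the array) of the 10 genes by treatment, 1 probe per gene, with 1 coloured line per experiment and the mean ± SD of 6 arrays in black. The GSN and CNN1 lines rise from Ctl to NaB and from Doxy to DoxyNaB in all 6 experiments and the TPM4 lines fall in all 6, while the ACTA2 and CAPG lines cross. Vertical scales differ between panels.

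Gelsolin was measured by 2 probes that lie apart in the gene and share no stretch, so they are separate measurements of the same transcripts. The probes are given here with their positions as the array file lists them, on the plus strand of build NCBI36.
GSN A_23_P255884, chr9:123134592-123134651: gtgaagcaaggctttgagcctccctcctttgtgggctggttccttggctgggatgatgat
GSN A_33_P3423365, chr9:123133488-123133547: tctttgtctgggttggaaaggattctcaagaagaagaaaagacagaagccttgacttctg

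On A_23_P255884 the 6 Ctl arrays had levels from 0.20 to 1.00 with a median of 0.29, and the NaB arrays from 1.89 to 2.76 with a median of 1.95. The Doxy arrays ran from 0.28 to 0.83 around a median of 0.41, and the DoxyNaB arrays from 1.86 to 2.68 around 2.08. Every array with butyrate was above every array without it, and the experiment 1 array was the highest of each group. The change was 1.70 ± 0.06 (log2, SE, n = 6), or 3.24-fold, in NaB/Ctl, with a limma adjusted p of 6.3e-14, and 1.69 ± 0.06, or 3.22-fold, in DoxyNaB/Doxy, with an adjusted p of 6.0e-14. Both were higher in 6 of 6 experiments, from 1.60 to 1.85 in NaB/Ctl and from 1.49 to 1.85 in DoxyNaB/Doxy.

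The other gelsolin probe gave 1.79 ± 0.06 (log2, SE, n = 6) in NaB/Ctl and 1.85 ± 0.06 in DoxyNaB/Doxy, with limma adjusted p of 2.6e-14 and 1.7e-14. Its Ctl levels ran from −0.80 to −0.02 and its NaB levels from 1.05 to 2.01, again without overlap. Scaling each array to its median in place of its 75th percentile brought NaB/Ctl to 0.95 on the first probe, just under the fold needed for a call, and to 1.04 on the second. CAPG, the gelsolin relative that caps filaments without severing them, did not follow. Its 2 probes gave −0.14 (adjusted p = 0.12) and −0.31 (adjusted p = 0.0042, limma) in NaB/Ctl, and −0.16 (adjusted p = 0.071) and −0.29 (adjusted p = 0.0066) in DoxyNaB/Doxy, and the groups overlapped on both. Quantile normalization turned the sign of the first to 0.03 in NaB/Ctl.

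The 3 tropomyosin genes moved in different directions: TPM2 and TPM4 were lower with butyrate on both of their probes, and TPM1 was higher on its 3, although A_24_P44462 turned sign in NaB/Ctl when arrays were scaled to the median. TPM2 and TPM4 share sequence, so their matching probes are shown with the bases that are identical between them in capitals, 41 of 59 aligned bases or 69.5%.
TPM2 A_23_P216501, NCBI36 chr9:35672088-35672147, minus strand: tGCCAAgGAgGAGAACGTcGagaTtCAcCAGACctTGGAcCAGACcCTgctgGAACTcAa
TPM4 A_23_P141974, NCBI36 chr19:16073086-16073145, plus strand: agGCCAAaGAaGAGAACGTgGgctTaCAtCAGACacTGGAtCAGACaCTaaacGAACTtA
The second probe of each gene had no such partner: its best match to a probe of another gene was 55.0% for TPM2 and 63.0% for TPM4.

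TPM4 encodes a cytoskeletal tropomyosin of nonmuscle cells. On A_23_P141974 the Ctl arrays had levels from 1.92 to 2.24 with a median of 2.21, and the NaB arrays from −0.08 to 0.53 with a median of 0.30. Levels in Doxy ran from 2.10 to 2.40, median 2.33, and in DoxyNaB from 0.03 to 0.57, median 0.44. The groups with and without butyrate lay far apart. The log2 change was −1.88 ± 0.07 (SE, n = 6), or 3.69-fold lower, in NaB/Ctl (limma adjusted p = 6.3e-14), and −1.96 ± 0.07, or 3.88-fold lower, in DoxyNaB/Doxy (adjusted p = 3.4e-14). The second TPM4 probe, A_24_P82880, gave −2.04 ± 0.12 and −2.12 ± 0.12 (log2, SE, n = 6), with limma adjusted p of 3.1e-11 and 1.9e-11. TPM4 was lower in 6 of 6 experiments on both probes in both comparisons, and both probes stayed called under every alternative processing that was run.

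TPM2, the beta-tropomyosin gene, was brightest on the experiment 1 array of each group and otherwise tight. On A_23_P216501 its Ctl levels ran from 4.74 to 5.37 with a median of 4.88, and its NaB levels from 3.78 to 4.48 with a median of 4.01. The Doxy arrays ran from 4.65 to 5.38, median 4.74, and the DoxyNaB arrays from 3.56 to 4.54, median 3.96. Neither pair of groups overlapped on this probe. The log2 change was −0.90 ± 0.09 (SE, n = 6) in NaB/Ctl and −0.81 ± 0.09 in DoxyNaB/Doxy, with limma adjusted p of 2.7e-08 and 1.1e-07 and with 6 of 6 experiments lower, but under the fold needed for a call. The other probe, A_33_P3270599, gave −1.03 ± 0.09 (2.05-fold lower, limma adjusted p = 1.4e-08) in NaB/Ctl and −0.78 ± 0.09 (adjusted p = 6.1e-07) in DoxyNaB/Doxy. It was called in the first only, and the interaction on this probe was −0.26, with a 95% interval from −0.54 to 0.02 and an adjusted p of 0.47. Without experiment 1 its NaB/Ctl change was −0.95 and no longer passed the fold.

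TPM1, the alpha-tropomyosin gene, was higher with butyrate but did not reach 2-fold on its brightest probe. On A_23_P206018 the Ctl levels ran from 1.01 to 1.18 with a median of 1.08 and the NaB levels from 1.69 to 2.04 with a median of 1.92. The Doxy levels ran from 1.08 to 1.27, median 1.18, and the DoxyNaB levels from 1.63 to 2.05, median 2.00. All arrays with butyrate were above all arrays without. The change was 0.81 ± 0.07 (log2, SE, n = 6), or 1.75-fold, in NaB/Ctl (limma adjusted p = 2.7e-09) and 0.72 ± 0.07, or 1.65-fold, in DoxyNaB/Doxy (adjusted p = 1.3e-08), with 6 of 6 experiments higher. Scaling to the median brought it to 0.06 in NaB/Ctl, with an adjusted p of 0.83; it kept its sign under every alternative that was run.

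The other TPM1 probes overlap, and the 26 bases they share are in capitals. The first of them spans 1001 bases of the genome with 60 bases of probe, so it crosses an intron.
TPM1 A_24_P44462, NCBI36 chr15:61140494-61141494, plus strand: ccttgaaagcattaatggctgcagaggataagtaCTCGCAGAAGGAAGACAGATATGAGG
TPM1 A_33_P3335966, NCBI36 chr15:61141469-61141528, plus strand: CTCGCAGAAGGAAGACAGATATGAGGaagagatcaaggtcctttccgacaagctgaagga
A_24_P44462 gave 0.69 ± 0.12 (log2, SE, n = 6) in NaB/Ctl and 0.70 ± 0.12 in DoxyNaB/Doxy. A_33_P3335966 gave 1.07 ± 0.18, or 2.10-fold, in NaB/Ctl, where it was called (limma adjusted p = 2.4e-05), and 0.79 ± 0.18 in DoxyNaB/Doxy. The NaB/Ctl change on A_33_P3335966 was 2.28 in experiment 1, while in the other experiments it lay between 0.66 and 1.12. Without experiment 1 the change was 0.83. A_33_P3335966 also matched a TPM3 probe at 47 of 60 bases, and its signal from TPM1 and TPM3 cannot be told apart here.

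CNN1 was higher with butyrate in 6 of 6 experiments. It encodes the calponin of differentiated smooth muscle, which binds actin and tropomyosin and slows myosin. The Ctl arrays had levels from −5.39 to −3.25 with a median of −3.85, and the NaB arrays from −0.77 to −0.43 with a median of −0.57. The Doxy arrays ran from −5.84 to −2.95 around −4.12, and the DoxyNaB arrays from −1.20 to −0.48 around −0.99. The untreated levels were dim and wide and the butyrate levels were narrow, and the groups did not overlap. It stood well above background on all arrays with butyrate, on 5 of 6 with doxycycline alone and on 4 of 6 with neither agent, so it entered the test through the groups where it was high and its fold rests in part on arrays near background. The change was 3.41 ± 0.29 (log2, SE, n = 6), or 10.6-fold, in NaB/Ctl (limma adjusted p = 5.3e-09), and 3.34 ± 0.29, or 10.1-fold, in DoxyNaB/Doxy (adjusted p = 7.2e-09).

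The size of the CNN1 change depended on how the background of the dim arrays was treated. Normexp background correction gave 1.87 in NaB/Ctl and 1.90 in DoxyNaB/Doxy (log2), and CNN1 was called there and under every other alternative that kept the probe. Its relatives in the calponin family were not called. CNN2, a calponin of nonmuscle cells, had levels from 1.39 to 1.92 in Ctl and from 1.07 to 1.40 in NaB. The ranges overlapped at their ends, and the log2 change was −0.45 ± 0.08 (SE, n = 6) in NaB/Ctl (limma adjusted p = 7.2e-05) and −0.35 ± 0.08 in DoxyNaB/Doxy (adjusted p = 6.9e-04), lower in 6 of 6 experiments in both.

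TAGLN encodes transgelin (SM22), an actin-binding protein abundant in smooth muscle and fibroblasts. Its probe A_23_P87011 had Ctl levels from −2.13 to −0.28 with a median of −0.89 and NaB levels from −2.31 to −1.37 with a median of −1.58. The ranges overlapped, and the experiment 6 array was the lowest of the Ctl, NaB and Doxy groups. Within experiments the change was −0.80 ± 0.19 (log2, SE, n = 6) in NaB/Ctl (limma adjusted p = 0.0013), lower in 6 of 6 experiments, and −0.37 ± 0.19 in DoxyNaB/Doxy (adjusted p = 0.095), lower in 4 of 6. The second probe, A_23_P87013, did not pass in either: −0.34 ± 0.32 (adjusted p = 0.34) and −0.18 ± 0.32 (adjusted p = 0.61). Quantile normalization brought the first probe to −1.27 in NaB/Ctl, where it was called.

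ACTA2, the smooth muscle alpha-actin gene, had levels from −1.83 to −1.42 in Ctl and from −2.34 to −1.46 in NaB. The groups overlapped, and the log2 change was −0.28 ± 0.19 (SE, n = 6) in NaB/Ctl (limma adjusted p = 0.18) and −0.24 ± 0.19 in DoxyNaB/Doxy (adjusted p = 0.26). MYL9, the regulatory light chain of smooth and nonmuscle myosin II, gave 0.28 ± 0.10 (log2, SE, n = 6) in NaB/Ctl (limma adjusted p = 0.014) and 0.25 ± 0.10 in DoxyNaB/Doxy (adjusted p = 0.025). Neither gene passed the adjusted p of 0.01 under the main scaling, and MYL9 had the opposite sign, −0.47 and −0.31, when arrays were scaled to the median. Sequence relatives were near for both: the ACTA2 probe matched a POTEKP probe at 42 of 60 bases and the MYL9 probe a MYL12B probe at 35 of 44.

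**Figure D2:**
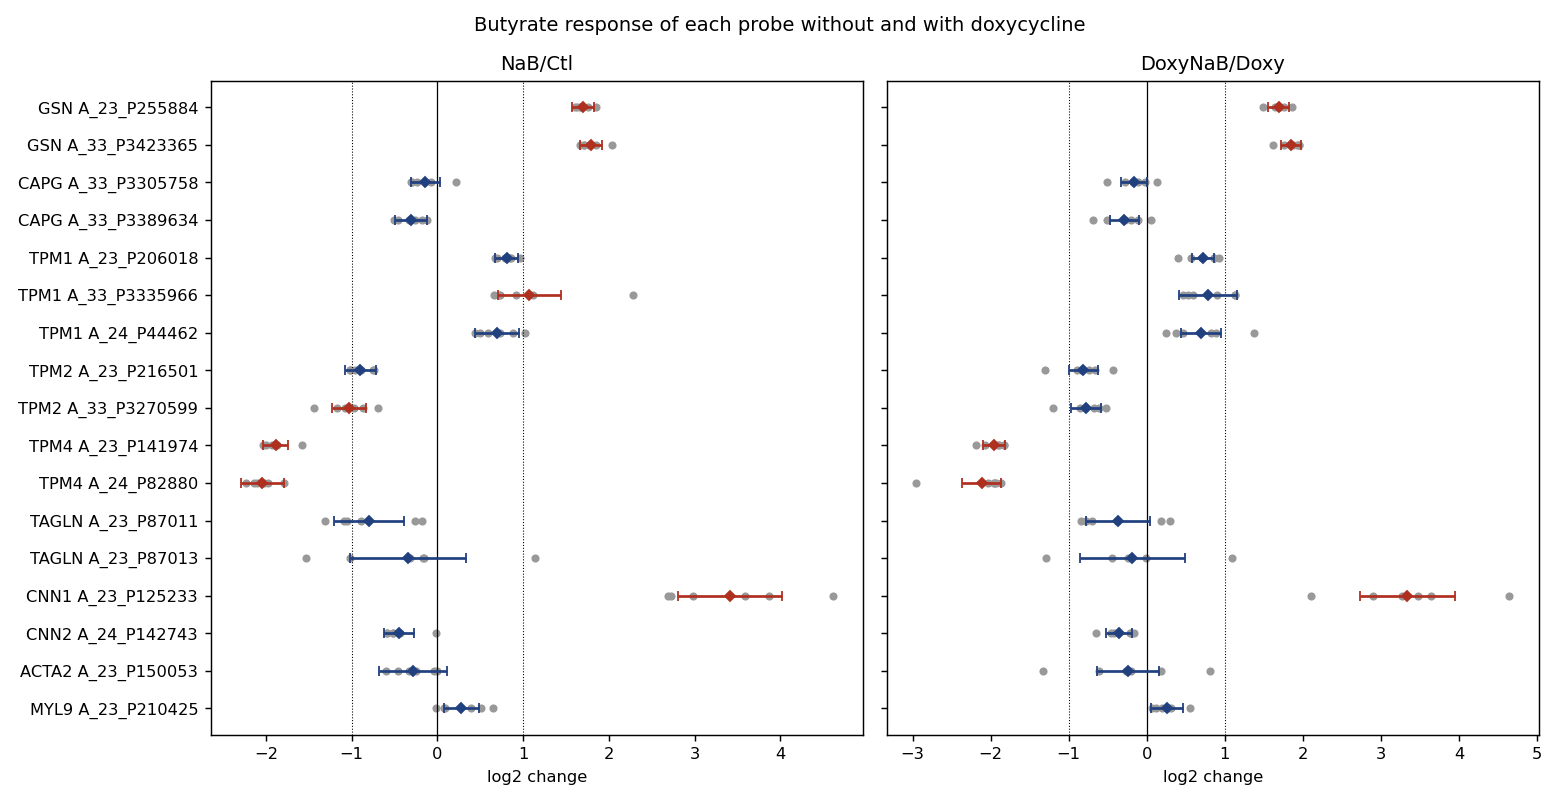
Log2 change of each of the 17 probes with butyrate, without doxycycline (NaB/Ctl, left) and with it (DoxyNaB/Doxy, right). Grey points are the 6 experiments, diamonds the limma estimate with its 95% interval (red where called), and dotted lines a 2-fold change. GSN and CNN1 lie to the right of the dotted line and TPM4 to the left in both panels, with TPM1 and TPM2 near the lines.

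Doxycycline moved none of the 10 genes past the threshold. In Doxy/Ctl, 0 of 17 probes were called by limma (0.0949% of all probes were), with 2 at an unadjusted p under 0.05. The log2 changes lay between −0.37 for TAGLN and 0.23 for GSN, and the lowest adjusted p was 0.075. The 2 probes were GSN A_33_P3423365, at 0.23 ± 0.06 (log2, SE, n = 6) and higher in 6 of 6 experiments, and TPM4 A_23_P141974, at 0.15 ± 0.07 (limma adjusted p = 0.35). TAGLN A_23_P87011, at −0.37 ± 0.19 (log2, SE), had a change of −1.56 in experiment 1, while the others lay between −0.32 and 0.10.

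In DoxyNaB/NaB, 0 of 17 probes were called (0.38% of all probes were), with 1 at an unadjusted p under 0.05. That was again GSN A_33_P3423365, at 0.29 ± 0.06 (log2, SE, n = 6), or 1.22-fold, with a limma adjusted p of 0.0077 and with 6 of 6 experiments higher. At any fold an adjusted p under 0.01 was reached by 2.49% of all probes. The NaB and DoxyNaB ranges on this probe overlapped, and leaving out any 1 experiment put its adjusted p between 0.011 and 0.068. The other gelsolin probe gave 0.05 ± 0.06 (adjusted p = 0.78) and did not pass. CNN1 gave −0.35 ± 0.29 (log2, SE, n = 6, limma adjusted p = 0.65), lower in 5 of 6 experiments. This SE is pooled over all 24 arrays, including the Ctl and Doxy arrays, where CNN1 was dim and wide. The 6 DoxyNaB/NaB differences of CNN1 had an SD of 0.27 and ran from −0.71 to 0.08.

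The question of the design, whether the butyrate response of these genes differs with doxycycline present, is addressed by the interaction. It passed for 0 of 17 probes (limma adjusted p under 0.01; 1.24% of all probes passed), with 0 at an unadjusted p under 0.05. The interaction was 0.01 for GSN A_23_P255884, with a 95% interval from −0.18 to 0.19 (log2), which is how closely the arrays fix the difference between its butyrate responses. For TPM4 A_23_P141974 it was 0.07, with an interval from −0.13 to 0.28. CNN1 was less precise, at 0.07 with an interval from −0.79 to 0.93. The furthest from 0 was TAGLN A_23_P87011, at −0.43 with an interval from −1.01 to 0.15, and the widest interval of the 17 reached 0.96 to either side. A p that misses the threshold does not show that the responses were equal, and for CNN1 and TAGLN a difference near 2-fold lies within the interval or at its edge.

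**Figure D3:**
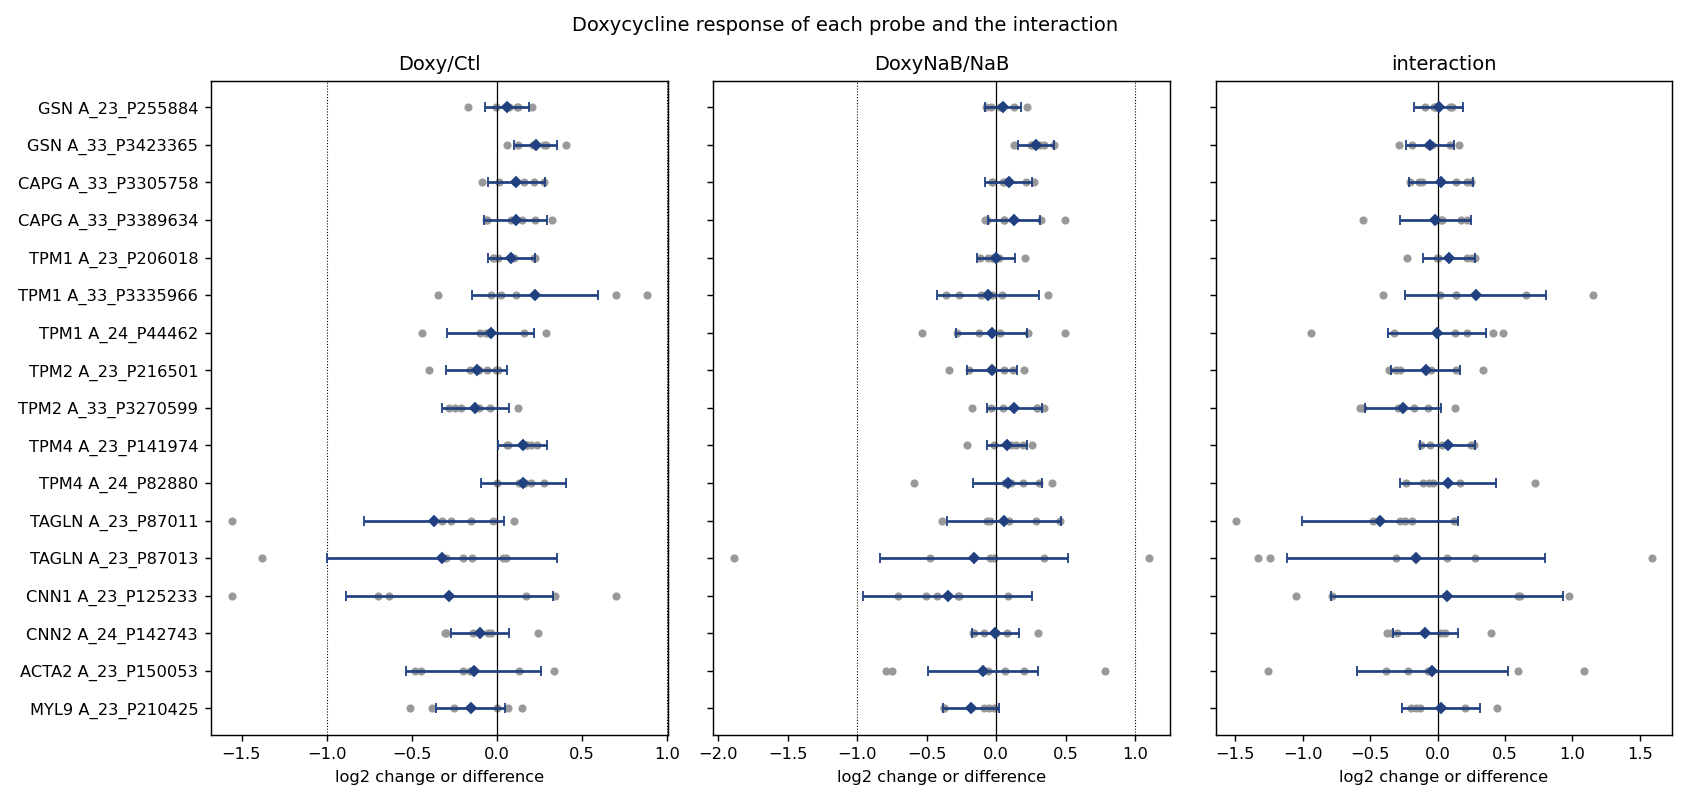
Log2 change of each of the 17 probes with doxycycline alone (Doxy/Ctl), with doxycycline on top of butyrate (DoxyNaB/NaB), and the interaction (NaB/Ctl minus DoxyNaB/Doxy). Grey points are the 6 experiments and diamonds the limma estimate with its 95% interval, and dotted lines mark a 2-fold change. The estimates lie between −0.43 and 0.29, with the widest intervals on TAGLN and CNN1.

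Scaling each array to its median moved large and small NaB/Ctl changes of the 17 probes down alike. Quantile normalization and normexp did not move all probes equally. Normexp, for example, took CNN1 from 3.41 to 1.87 and TPM1 A_23_P206018 from 0.81 to 0.87 (log2, NaB/Ctl). Butyrate raised more probes than it lowered under the main scaling, and taking the median of each array as its zero moved the median NaB/Ctl change of all tested probes from 0.17 to −0.58. GSN, CNN1 and TPM4 kept their directions under each scaling that was run, while TPM1 A_24_P44462 (−0.06) and MYL9 (−0.47) turned sign under median scaling. Of all probes called in NaB/Ctl, 65.3% were higher under the main scaling, 53.2% with normexp, 43.8% with quantile normalization and 21.2% with median scaling.

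**Figure D4:**
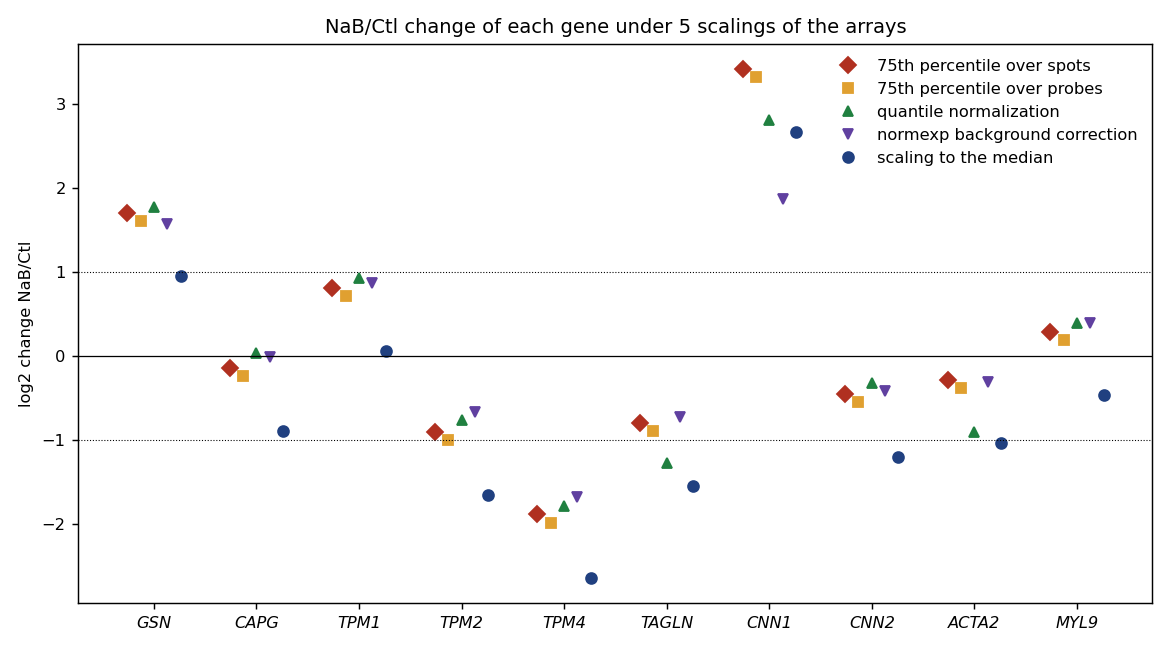
NaB/Ctl log2 change of the 10 genes, 1 probe per gene, under 5 scalings of the arrays (symbols), with dotted lines at a 2-fold change. GSN, CNN1 and TPM4 keep their side of 0 under all 5, whereas CAPG and MYL9 cross it and TPM1 comes to 0.06 when arrays are scaled to the median.

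A list of 77 genes of actin filaments and their regulation, grouped into 8 roles and holding the 10 genes above, was read in the same fit with 1 probe per gene. Of the 77, 67 were tested. In NaB/Ctl 13 were called higher and 6 lower, against 21.0% and 11.5% of the 15154 genes tested on the array, and in DoxyNaB/Doxy 14 and 5, against 18.7% and 12.5%. These shares are near those of the array. Of the 57 that are not among the 10, 11 were higher and 5 lower in NaB/Ctl. None was called in Doxy/Ctl, DoxyNaB/NaB or the interaction.

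Among the severing and capping genes, VILL, a villin-like gene, was at 1.88 (log2 change in NaB/Ctl, limma adjusted p = 4.3e-07) and CAPZA1, a subunit of the barbed-end capping protein, at −1.04 (adjusted p = 5.2e-11). TMOD2, which caps pointed ends, was at 1.88 (adjusted p = 1.9e-07), with 5 of 6 Ctl arrays well above background and its entry to the test through the butyrate groups, and CALD1, the actin- and tropomyosin-binding caldesmon, at −1.33 (adjusted p = 6.4e-11). ACTA1, the skeletal muscle actin gene, was at 1.58 with 4 of 6 Ctl arrays well above background and its entry to the test through the NaB group alone. For myosin II regulation, PPP1R12B, a targeting subunit of myosin phosphatase, was at 1.46 and MYLK, the myosin light chain kinase gene, at 1.20, so the genes for both the phosphatase subunit and the kinase were higher. In filament turnover 3 of 10 tested genes were called, all lower, against 11.5% of all genes lower and 21.0% higher. The profilin PFN2 was at −1.64 and the cyclase-associated CAP2 at −2.90. CAP2 was well above background on 1 of 6 NaB arrays and entered the test through the groups without butyrate, where it was high. The crosslinkers LCP1 (L-plastin, 1.77) and FLNA (filamin A, 1.05) were higher, and so was MRTFA, the actin-sensing co-activator of SRF, at 1.64 (log2, adjusted p = 3.7e-11). In Ctl the signal of LCP1 cleared background clearly on 3 of 6 arrays, and that of MYLK on 5 of 6. Both did so on every array of the other groups, so their NaB/Ctl folds rest in part on dim Ctl arrays. Of the genes named above as called in NaB/Ctl, all but CAPZA1 were also called in DoxyNaB/Doxy, where CAPZA1 was at −0.85. CFL2, the remaining turnover gene called in NaB/Ctl, was at −1.84 there and at −0.97 in DoxyNaB/Doxy, where it was not called. Its interaction was −0.87 (limma adjusted p = 0.22) and did not pass.

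**Figure D5:**
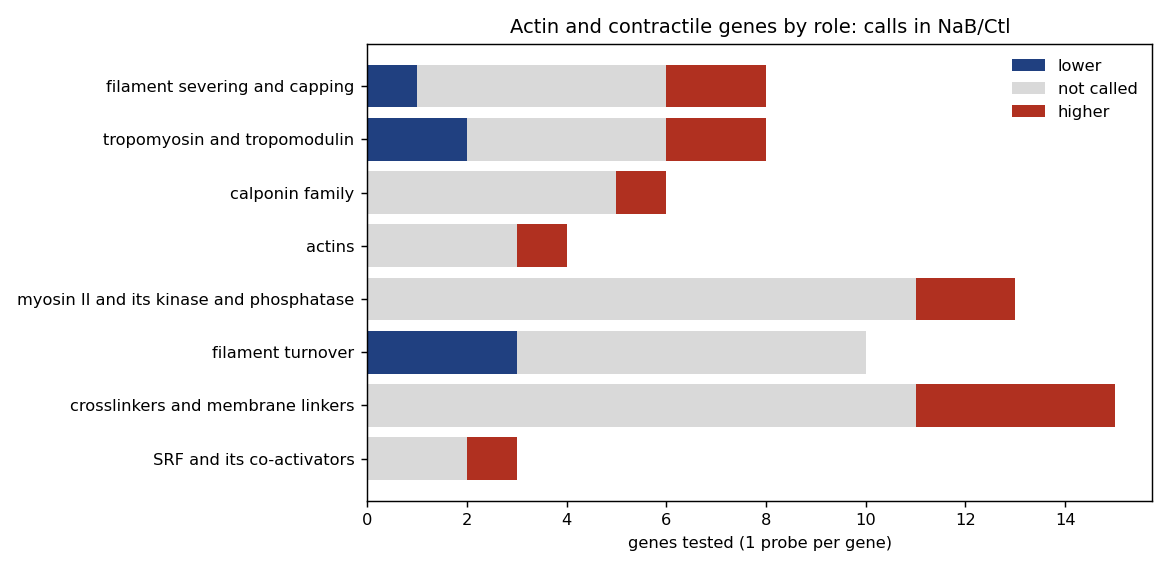
Genes of 8 roles in actin filament and contractile function that were called higher (red), lower (blue) or not called (grey) in NaB/Ctl, 1 probe per gene, out of 67 tested. Of the filament turnover genes 3 of 10 were lower, and 4 of 15 crosslinkers, 2 of 13 myosin II regulators and 1 of 4 actins were higher, against 11.5% lower and 21.0% higher over all genes.

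Markers of other cell types were read beside these genes, because CNN1, TAGLN and ACTA2 are also smooth muscle or fibroblast markers. Of the 7 smooth muscle markers 3 could be tested, and DES (2.10) and SYNPO2 (3.09) were called higher in NaB/Ctl (log2). SYNPO2 entered the test through the butyrate groups, since only 3 of 6 Ctl arrays showed it over background. SMTN, the other tested marker, was at 0.295 and was not called. The summed level of the list ran from 1.60 to 2.52 in Ctl and from 2.14 to 2.73 in NaB. A sum weighs the brightest probes most, here SMTN, at a mean level of 1.68 in Ctl and 1.98 in NaB. The mean levels of the other markers of the list were negative. Of the 9 fibroblast markers 2 could be tested, COL1A1 (1.09) and THY1, both called higher. THY1 was not well above background on any Ctl array and entered the test through the butyrate groups, where it was high. COL3A1 was well above background on 0 of 24 arrays, and the list's summed level ran from −1.42 to −0.70 in Ctl and from 0.09 to 0.97 in NaB. COL1A1 and THY1 were the brightest of the list in NaB, at mean levels of −0.55 and −0.67. Among epithelial markers EPCAM was called lower (−1.45) and 0 were called higher, although CDH1 (0.99), KRT19 (0.97) and KRT8 (0.63) were higher below the 2-fold threshold and CDX2 (−0.67) lower, each with a limma adjusted p under 0.01, and the summed level ran from 7.71 to 8.23 in Ctl and from 8.10 to 8.97 in NaB. The part of other cell types in the CNN1 change was not tested. In a culture of 1 clone, a change in the number of cells that make a transcript and a change in the amount per cell cannot be told apart.

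Across the 24 arrays, with each experiment centred on its own mean, GSN was followed most closely by RASSF4, IL10RA and TIMP3, with Pearson's r of 0.998 for each, among 11888 genes well above background on every array. Their NaB/Ctl changes were 3.32, 3.63 and 4.33 (log2). Of the other genes of the 10, TPM1 had an r of 0.98 with GSN, TPM4 −0.99, TPM2 −0.96, CNN2 −0.87, TAGLN −0.67, MYL9 0.65, CAPG −0.56 and ACTA2 −0.46. CNN1 was left out, since 3 of its 24 arrays were not well above background. The arrays share their 4 treatments, so any pair of genes that responds to butyrate correlates in this way.

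Promoters of 8 of the 10 genes, 20 start sites in all, were in the RefSeq promoter table (GRCh38.p14, 250 bases before to 50 after each start). TAGLN and MYL9 were not in it. A CArG box, searched on both strands, was in 2 of the 20 windows, 1 of TPM4 and 1 of CNN2, against 1.29% of 35116 windows. Both matches begin with CC, end with GG and hold only A or T between. SRF binding was not tested, and a window without a match is not shown to lack it. The TCF/LEF motif CTTTGAT was in 1 (CNN2), against 2.62%, the TATA sequence TATAAA in 1 (GSN), against 11.5%, and the GC box GGGCGG in 14, against 45.0%. Of the 2 genes with a CArG box, TPM4 was called lower with butyrate, and CNN2 was lower but not called (log2 −0.45 in NaB/Ctl). CAPG, TPM2 and ACTA2 also had negative NaB/Ctl changes, and GSN, TPM1 and CNN1 positive ones, with no box in their windows. A link between the box and the response was not tested. The 250 bases before the start of both CArG windows are given with the box in capitals, both on the plus strand.
TPM4, GRCh38.p14 chr19:16067288-16067537: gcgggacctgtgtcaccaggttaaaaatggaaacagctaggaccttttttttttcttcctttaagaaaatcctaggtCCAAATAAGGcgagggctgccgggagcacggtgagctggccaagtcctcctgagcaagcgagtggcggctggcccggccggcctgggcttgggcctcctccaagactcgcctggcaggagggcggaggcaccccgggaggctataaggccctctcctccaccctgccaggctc
CNN2, GRCh38.p14 chr19:1026358-1026607: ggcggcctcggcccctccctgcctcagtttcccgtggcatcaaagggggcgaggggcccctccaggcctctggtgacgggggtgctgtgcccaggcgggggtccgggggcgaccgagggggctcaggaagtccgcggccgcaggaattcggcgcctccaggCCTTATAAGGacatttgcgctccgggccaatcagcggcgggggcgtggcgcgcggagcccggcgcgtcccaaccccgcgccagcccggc
TPM4 had 3 start sites in the table and the other 2 held no CArG box. The array probes do not tell which start was used.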

How the data were processed

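The authors hybridised labelled RNA of 24 samples to single-colour Agilent whole-genome arrays, and the deposited files hold each spot's background-subtracted intensity (gProcessedSignal) as scanned and extracted with Agilent Feature Extraction 9.5.3.1, per the file headers. Nothing was normalized between arrays in them. The headers give spatial and multiplicative detrending and the use of surrogates as switched on, so a spot near background can hold a substituted value. Here control spots and spots flagged as outliers were left out, each intensity was divided by the array's 75th percentile, log2 was taken, and spots of 1 probe were averaged. A probe entered the test if, in 1 treatment or more, each of the 6 arrays showed it well above background. Limma 3.58.1 (R 4.3.3) fitted treatment with the experiment number as a block over all 24 arrays, and p-values were adjusted over all 18966 probes. The block was used because the study compared treatments within experiments and 35 of 36 within-experiment array pairs deviated together (r over 0.1; the lowest was −0.22). A gene with several probes is represented by the one of highest mean level where 1 value is needed.

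All 10 genes and all their probes are named. Of the wider list, the genes of each role with the largest and the smallest signed change among those called in NaB/Ctl are named, and CFL2 as the remaining filament turnover gene called. PPP1R12A is named beside PPP1R12B as the other phosphatase targeting subunit of the list. The genes, lists and motifs were chosen with earlier results of these data known. The study's methods call the 6 experiments biological replicates. Since experiment was a block, level differences between experiments were removed before testing. The limma p-values rest on how treatment differences varied from experiment to experiment, estimated over all arrays together. The number of arrays limits the precision. Alternatives were background correction, scaling, probe filter, block, threshold, scan and each experiment left out. The fit was tested on simulated data.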

Additional observations from a re-analysis of the deposited data

Results flagged for a closer look

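In each group of 6 arrays of each of the 17 probes (68 groups), the highest and the lowest array were examined by Dixon's criterion. It sets the gap to the nearest array against the range of all 6, and flags about 1 in 20 groups by chance. An array stood apart in 9 groups, and 8 of these arrays were of experiment 1. Gelsolin probe A_23_P255884 was highest on the experiment 1 array of every treatment: 1.00 in Ctl, 2.76 in NaB, 0.83 in Doxy and 2.68 in DoxyNaB, where the other 5 arrays averaged 0.27, 1.95, 0.37 and 2.03 (log2 level). CAPG was also high on the Doxy array of experiment 1, at 2.55 on A_33_P3305758 and 2.68 on A_33_P3389634. TPM2 was high there too, at 5.38 on A_23_P216501, and at 4.87 on A_33_P3270599 on the Ctl array of experiment 1. The remaining array was the DoxyNaB array of experiment 6, with TPM4 A_24_P82880 at −2.31 against a mean of −1.14 on the others. Experiment 1 was on slides and in scans of its own, and the part of these in its levels was not tested. Without experiment 1 the gelsolin change in NaB/Ctl lay within the range of 1.67 to 1.72 that leaving out any 1 experiment gave.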

How the results depend on the processing

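Butyrate moved 7 probes past the threshold in NaB/Ctl and 5 in DoxyNaB/Doxy. Scaling each array to its median gave 11 in NaB/Ctl, and every other alternative gave 5 to 7. Without replicate 1, which is experiment 1, 5 were called, and leaving out each experiment in turn gave 5 to 7. DoxyNaB/Doxy had 4 to 7. No probe was called in Doxy/Ctl, DoxyNaB/NaB or the interaction under any alternative. The replicate block, that is the pairing by experiment number, changed no count: without it 7 and 5 probes were called. By the methods' t-test, 7 probes passed in NaB/Ctl unadjusted and 6 after Benjamini-Hochberg adjustment. With 1 probe per gene 3 genes were called in each butyrate comparison, and 3 with their probes averaged.

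Calls were lost in NaB/Ctl for GSN A_23_P255884 with median scaling (0.95, from 1.70), which moved all probes down, for TPM1 A_33_P3335966 with, for example, quantile normalization (0.98) or the slide as block (0.92), and for TPM2 A_33_P3270599 with normexp (−0.83), quantile normalization (−0.82), the slide as block (−0.99) or the fourth scan alone (−0.83). Median scaling added ACTA2 (−1.03), CAPG A_33_P3389634 (−1.06), CNN2 (−1.20), TAGLN (−1.55 and −1.09) and TPM2 A_23_P216501 (−1.65). Median scaling moved each NaB/Ctl change of the 17 probes down alike, for example TPM4 A_23_P141974 from −1.88 to −2.63 and CNN1 from 3.41 to 2.66. Why calls were lost under the other settings was not tested.

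Values that were not called changed sign 74 times, and none was called after the change. With normexp background correction, DoxyNaB/Doxy became 0.20 for TAGLN A_23_P87013, DoxyNaB/NaB became 0.15 for ACTA2, −0.12 for CAPG, −0.056 for GSN and −0.013 for TPM4, and the interaction became −0.029 for CNN1, 0.017 for CNN2, 0.003 for GSN A_33_P3423365 and 0.18 for TPM2. With quantile normalization, NaB/Ctl became 0.032 for CAPG, DoxyNaB/NaB became 0.055 for ACTA2, and the interaction became −0.035 for CNN1. With scaling to the median, NaB/Ctl became −0.47 for MYL9 and −0.057 for TPM1 A_24_P44462, DoxyNaB/Doxy became −0.31 for MYL9, Doxy/Ctl became −0.026 for GSN, DoxyNaB/NaB became 0.011 for ACTA2, 0.099 for CNN2, 0.10 for TPM1 and 0.074 for TPM2, and the interaction became −0.17 for CAPG, −0.12 for CNN1, −0.18 for GSN, −0.16 for MYL9, −0.10 for TPM1 and −0.12 for TPM4. With the third scan alone (experiments 2 to 4), NaB/Ctl became 0.27 for TAGLN A_23_P87013, DoxyNaB/Doxy became 0.13 for ACTA2 and 0.14 for TAGLN A_23_P87013, DoxyNaB/NaB became 0.016 for ACTA2, 0.015 for CNN2, −0.002 for TAGLN and 0.010 for TPM1, and the interaction became −0.022 for CAPG, −0.033 for CNN1 and 0.065 for TPM2. With the fourth scan alone (experiments 5 and 6), DoxyNaB/NaB became 0.070 for ACTA2, 0.038 for CNN2, 0.085 for TPM2 and −0.010 for TPM4, and the interaction became −0.038 for CNN1 and 0.011 for GSN A_33_P3423365. With each gene's probes averaged, DoxyNaB/NaB became −0.053 for TAGLN and 0.050 for TPM2, and the interaction became −0.024 for GSN. Without the NaB array of experiment 3 and the DoxyNaB array of experiment 2, chosen after seeing the data for their high negative controls, DoxyNaB/NaB became 0.002 for CNN2, 0.018 for TPM1 and 0.027 for TPM2, and the interaction became 0.053 for ACTA2 and −0.006 for GSN. With 1 experiment left out at a time, DoxyNaB/Doxy lay between −0.44 and 0.038 for TAGLN A_23_P87013, DoxyNaB/NaB lay between −0.27 and 0.046 for ACTA2, between −0.067 and 0.026 for CNN2, between −0.023 and 0.15 for TAGLN, between −0.042 and 0.023 for TPM1 and between −0.078 and 0.031 for TPM2, and the interaction lay between −0.27 and 0.20 for ACTA2, between −0.019 and 0.071 for CAPG, between −0.11 and 0.29 for CNN1, between −0.012 and 0.028 for GSN and between −0.055 and 0.073 for MYL9.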
